A study of Mus musculus with 8 samples.

Results

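The array carries 2781 non-control probes designed on full-length cDNA clones, 4.99% of its 55681 non-control probes. They were chosen by their design accession alone, the letters AK or BC followed by 6 digits, and no measured value entered the choice. AK accessions account for 2497 probes on 2457 accessions, and BC accessions for 284 probes on 276 accessions. RNA from the hippocampus of Ts1Cje mice and of disomic wild-type littermates was hybridised to 8 one-colour Agilent arrays, 4 per genotype. All animals were C57BL6/J by their strain label and 3 months old, and the labels name no treatment. Ts1Cje is a segmental trisomy model of Down syndrome: every Ts1Cje animal carries an extra copy of the distal end of mouse chromosome 16 on a translocation that also removes the tip of chromosome 12, so that a difference between the genotypes cannot be assigned to either change. The labels call the arrays replicates, and the series' design speaks of 4 pairs. They do not say which arrays share a litter.

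A full-length cDNA clone is a copy of a single captured RNA molecule, sequenced from end to end. Accessions beginning with AK were given by the Japanese sequence archive and, for mouse, come largely from the RIKEN collection, which sampled many tissues and stages and kept transcripts whether or not they had an open reading frame. Accessions beginning with BC belong largely to the Mammalian Gene Collection, which selected clones holding a complete coding sequence. A clone accession therefore names a molecule that was once captured, and it does not by itself say that a gene model of the RefSeq catalogue covers it.

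Signals below are log2 processed signals minus the 75th percentile of the same array, so that 0 is that percentile and 1 unit is a doubling. A probe was counted as detected where the scanner software scored it well above background. Probe sequences were not used here, and probes of different sequence bind with different strength, so a level compared between AK and BC is a description of the classes and not of transcript abundance. All 8 arrays shared a slide and a scan. Between 59.9% and 63.1% of all probes were detected on an array, and pairs of arrays correlated at r = 0.992 to 0.996 over the 32596 probes fitted. Of 47 cell type marker genes with a probe, 45 were detected on all 8 arrays, including all 8 markers of hippocampal principal neurons, and 0 differed between genotypes by the limma test described further on. The 3 ependymal markers together lay at 0.12 to 0.48 on the Ts1Cje arrays and at 0.50 to 0.91 on the wild-type arrays, the lone marker list whose genotypes did not overlap (two-sided exact permutation p = 0.0286, the smallest that 70 assignments allow, and 0.314 adjusted over the lists). The part of this difference in the results below was not tested.

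AK clone probes were detected less often than BC clone probes. On all 8 arrays 1270 AK probes (50.9%) were detected, against 170 BC probes (59.9%) and 70.6% of probes designed on RefSeq accessions. At the other end, 801 AK probes (32.1%) and 70 BC probes (24.6%) were detected on none of the arrays, against 19.6% of RefSeq probes. Detection was intermittent for the remaining 426 AK and 44 BC probes. Both clone classes were detected more often than probes tiled on genome intervals, of which 36.2% were detected on all 8 arrays, and Ensembl-only transcripts stood at 48.2%, just under the AK class.

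The order of the classes held on each array. The share of AK probes detected was 55.99%, 56.11%, 58.19% and 56.07% on wild-type replicates 1 to 4 and 58.99%, 56.11%, 57.47% and 58.27% on Ts1Cje replicates 1 to 4. The share of BC probes was 64.79%, 65.49%, 66.20% and 65.85% on the wild-type arrays and 67.96%, 63.38%, 65.49% and 66.55% on the Ts1Cje arrays. The AK share was thus the lower of the pair on 8 of 8 arrays, and the genotypes overlapped in both classes. The AK share differed from the BC share by −8.56 ± 0.82 percentage points (SD, n = 8, range −9.78 to −7.27; two-sided exact sign-flip permutation p = 0.0078, the smallest that 256 flips allow). It was below the RefSeq share by a difference of −17.0 ± 0.59 points, and the BC share differed from the RefSeq share by −8.43 ± 0.76 points, with the same exact p. With the scanner's less strict flag, a signal positive and significant against background, the AK minus BC difference was −3.23 points. Since every array carries the same probes, this test speaks only of how steadily the arrays repeated the difference.

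The genotypes did not differ in detection beyond the spread between arrays. The AK share averaged 57.7% ± 1.24 (SD, n = 4) in Ts1Cje and 56.6% ± 1.07 in wild type, a difference of 1.12 points (exact permutation p = 0.20, adjusted 0.36 over the 7 values tested between genotypes). The BC share averaged 65.8% ± 1.93 and 65.6% ± 0.60, a difference of 0.26 points (exact permutation p = 0.857). More arrays detected a probe in Ts1Cje than in wild type for 220 AK probes (8.81%), and fewer for 146 (5.85%), beside 7.12% and 4.74% of all probes. The corresponding BC counts were 21 and 18.

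Complete switches of detection were rare. Of all probes, 20 were detected on the 4 Ts1Cje arrays and on none of the wild-type arrays, and 5 showed the reverse; the AK class held 1 of each and the BC class 0. The first was a probe for AK015935, at −4.65, −4.51, −4.87 and −4.73 on Ts1Cje replicates 1 to 4 and at −5.26, −5.31, −5.71 and −5.35 on wild-type replicates 1 to 4. Its Ts1Cje values all lay above its wild-type values, which were not well above background, so the difference has only a lower bound of at least 1.34-fold (limma adjusted p = 0.0756). The bound sets the Ts1Cje mean against the higher of the probe's own wild-type signal and the dimmest detected signal of each wild-type array. The second probe designed on AK015935 averaged −5.17 and was detected on only 2 arrays. The reverse case was AK135803, at −4.72, −4.76, −5.06 and −4.63 on the wild-type arrays and at −5.88, −5.12, −5.75 and −5.31 on the Ts1Cje arrays, where it was not well above background. Its wild-type mean was at least 1.23-fold higher (limma adjusted p = 0.298). Both probes were singled out by their detection and entered the fit through the genotype that detected them, so these p-values are no independent support.

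Detected AK probes were dim as a class, and BC probes spanned a wider range. Among the probes detected on all 8 arrays, the AK median was −1.76 with quartiles of −2.99 and −0.35, and the BC median was 0.65 with quartiles of −2.49 and 3.39. The RefSeq median was 0.30, between them. Only 272 AK probes (21.4%) lay above the arrays' 75th percentile, against 92 BC probes (54.1%) and 53.6% of RefSeq probes. The span from the 5th to the 95th percentile was 6.88 log2 units for AK, 10.4 for BC and 8.79 for RefSeq. The floors of the classes were close, at −4.72 for AK and −4.28 for BC, so the BC class reached further mainly at its bright end.

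The gap in median signal repeated across arrays. The AK median was below the BC median by a difference of −2.37 ± 0.09 log2 units (SD, n = 8, range −2.49 to −2.22; exact sign-flip p = 0.0078). The BC median was above the RefSeq median by 0.31 ± 0.09 (range 0.14 to 0.46, with the same exact p). As with the shares, every array carries the same probes. These p-values therefore speak only of how steadily the arrays repeated the differences. Taken over every probe, detected or not, the medians were −4.19 for AK, −3.10 for BC and −1.39 for RefSeq, so the BC class led RefSeq only among detected probes.

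The brightest clone probes were bright in both genotypes. The probe for AK136409 averaged 8.26 ± 0.02 in Ts1Cje and 8.24 ± 0.12 in wild type, and those for AK132518 and AK007267 averaged 8.16 and 7.81 in Ts1Cje and 8.10 and 7.91 in wild type. Among BC probes, BC096042 averaged 8.90 ± 0.04 and 8.86 ± 0.12, BC096413 averaged 7.39 and 7.52, and BC092287 averaged 7.28 and 7.38. None of these 6 separated the genotypes: the arrays of the genotypes overlapped for each, and the limma adjusted p was 0.641 or higher.

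Detection also varied along the accession numbers, which broadly follow the order of submission. AK accessions numbered below 20000 were detected on all 8 arrays for 41.4% of 616 probes. Those from 20000 up to 60000 reached 56.3% of 830, those from 70000 up to 100000 reached 55.1% of 385, and those from 120000 upward 50.5% of 666. The earliest AK accessions were therefore the least often detected, while the median signals of detected probes were alike, from −1.91 to −1.52. BC accessions ran the other way. Those below 30000 were detected for 72.9% of 107 probes with a median signal of 1.33, those from 30000 up to 60000 for 53.2% of 79 with a median of −1.23, and those from 60000 upward for 51.0% of 98 with a median of 0.26. The AK bands from 20000 up to 60000 and from 70000 up to 100000 thus stood above the BC bands from 30000 upward. The AK bands below 20000 and from 120000 upward stood below them. The lower share of the AK class therefore did not hold in every band. These bands were set for description, and their differences were not tested.

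The probes also fall into design series, shown by the prefix of the probe name. The A_55 series held 2017 AK and 235 BC probes, of which 52.1% and 60.0% were detected on all 8 arrays, so the gap between the classes was present within it. The A_66 series held 218 AK probes at 40.4% and 8 BC probes at 37.5%, so the order was the reverse there, on few BC probes. All 13 AK probes of the A_65 series were detected.

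Several clones had more than 1 probe, which shows how far the level depends on the probe. There were 43 such accessions, 35 AK and 8 BC, with 91 probes and at most 4 for an accession. All probes were detected on the 8 arrays for 12 of the accessions and none on any array for 10. In 6 accessions some probes were detected on every array and others on none. The median gap in signal between probes of an accession was 1.38 log2 units and the largest 8.36. That median includes the 10 accessions with no probe detected, whose gaps lie between signals not well above background. The largest gap was that of BC006659, whose dimmer probe, at −5.64, was not detected on all 8 arrays. For BC066226, a probe averaged 3.55 and its partner −3.77.

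The Ts1Cje minus wild-type differences of such probes were small, as they were for most fitted probes. Among the 14 accessions with at least 2 probes in the fit, the median gap in signal was 1.86, whereas the median gap in the Ts1Cje minus wild-type difference was 0.09, and it was under 0.2 in 11. The probes of an accession lay on the same side of 0 in 8 of the 14, and no comparison with unrelated probes was made. The widest disagreement was BC023262. Its first probe read −2.45, −2.33, −2.11 and −2.25 in Ts1Cje and −2.72, −2.40, −2.75 and −2.20 in wild type, a log2 difference of 0.23 (SE 0.13). Its second probe read −4.21, −3.67, −3.97 and −4.39 in Ts1Cje and −3.83, −1.69, −1.40 and −3.76 in wild type, a log2 difference of −1.39 (SE 0.58, limma adjusted p = 0.573). Wild-type replicates 2 and 3 stood far above the other arrays on the second probe and not on the first.

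A pair of AK clones were printed on 10 spots each, which gives the error within an array. The SD between spots is for single spots, whereas the SD between arrays is for averages over an array's spots. The first therefore overstates the error of an array's value, and the SDs are not directly comparable. For AK018620 the SD between spots of an array had a median of 0.131, and the SD between arrays was 0.07 in Ts1Cje and 0.09 in wild type. For AK053689 the SD between spots had a median of 0.060, and the SD between arrays was 0.15 and 0.09. Neither separated the genotypes, with log2 differences of 0.0029 (SE 0.06) and −0.05 (SE 0.09).

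The comparison of the genotypes was fitted with limma on every probe detected on all 4 arrays of at least 1 genotype, with p-values adjusted over all 32596 probes by the Benjamini-Hochberg method. The fit held 1348 AK probes (54.0%) and 178 BC probes (62.7%), and 1255 clone probes were too dim to enter. Of the AK probes fitted, 57 entered through the Ts1Cje arrays only and 21 through the wild-type arrays only, and of the BC probes 5 and 3, so these had to differ in their detection.

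A single AK probe and a single BC probe were higher in Ts1Cje at an adjusted p under 0.05, and none was lower. Over all probes fitted, 0.169% were called higher and 0.0184% lower, so 1 of 1348 and 1 of 178 are counts too small to set apart from that background. At an unadjusted limma p under 0.05 there were 117 AK probes (8.68%, with 82 higher and 35 lower), beside 8.44% of all probes (1330 higher and 1421 lower). There were 14 such BC probes (7.87%, with 6 higher and 8 lower). Among genome interval probes 365 were higher and 162 lower, a tilt in the direction of AK, and among RefSeq probes 715 and 1027.

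The called BC probe was designed on BC056174, for which the reference table gave no gene. It read −0.83, −0.77, −0.75 and −0.87 on Ts1Cje replicates 1 to 4 and −1.50, −1.49, −1.36 and −1.47 on wild-type replicates 1 to 4. The genotypes did not overlap, the Ts1Cje arrays being the higher, and the SD within a genotype was 0.05 in Ts1Cje and 0.07 in wild type. Its signal was 1.57-fold higher in Ts1Cje (log2 difference 0.65, SE 0.05, limma adjusted p = 0.0098). The adjusted p was 0.0962 with the replicate number as a block, and it ranged from 0.0166 to 0.0653 as each array was left out. The call was lost when the array omitted was replicate 1 of wild type or replicate 2, 3 or 4 of Ts1Cje.

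The called AK probe was designed on AK162627, also without a gene in the reference table. It read −1.47, −1.18, −1.34 and −1.27 in Ts1Cje and −2.17, −1.93, −2.28 and −1.98 in wild type. The genotypes did not overlap, and Ts1Cje was 1.71-fold higher (log2 difference 0.77, SE 0.10, limma adjusted p = 0.0250). The adjusted p was 0.0962 with the replicate block and 0.0582 with the slide row as a block, and it ranged from 0.0541 to 0.123 as each of the 8 arrays was left out in turn.

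The next AK probes upward did not pass the threshold. AK016705 read −1.33, −1.27, −1.30 and −1.12 in Ts1Cje and −1.63, −1.70, −1.62 and −1.74 in wild type, a log2 difference of 0.42 (SE 0.06, limma adjusted p = 0.0606). AK158677 read −0.97, −0.92, −0.98 and −0.99 in Ts1Cje and −1.49, −1.37, −1.89 and −1.44 in wild type, a log2 difference of 0.58 (SE 0.11, limma adjusted p = 0.124). The genotypes did not overlap for either, and the wild-type arrays of AK158677 were the more spread, with replicate 3 lowest. The log2 differences of AK134677, AK140493 and AK081485 were 0.32, 0.44 and 0.46. AK039538, detected on the 4 Ts1Cje arrays and on 1 wild-type array, averaged −4.15 in Ts1Cje and −4.77 in wild type; it entered the fit through its Ts1Cje arrays and did not pass.

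Among AK probes lower in Ts1Cje, none passed the threshold. The probe for AK048462, brighter than most of its class, read 2.25, 2.28, 2.33 and 2.28 in Ts1Cje and 2.52, 2.51, 2.60 and 2.47 in wild type. The genotypes did not overlap, with a log2 difference of −0.24 (SE 0.05, limma adjusted p = 0.172). AK020212 had a log2 difference of −0.50 (SE 0.11, limma adjusted p = 0.211), and AK014187, AK145188 and AK085171 had differences of −0.31, −0.24 and −0.23.

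For BC probes, 4 others were higher in Ts1Cje with genotypes that did not overlap and detection on every array, and none passed. BC100534 had a log2 difference of 0.40 (SE 0.10, limma adjusted p = 0.308), and BC082568, BC021399 and BC091753 had differences of 0.20, 0.20 and 0.19. The 5 lower BC probes, BC003861, BC096461, BC002087, BC003872 and BC006861, had log2 differences of −0.18, −0.20, −0.11, −0.24 and −0.11, with limma adjusted p of 0.439 or higher. BC091753 and BC002087 were bright, at 4.86 and 3.44 in Ts1Cje and 4.67 and 3.55 in wild type.

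The lowest log2 differences among AK probes did not pass the threshold, and a single array stood apart in both of the lowest. AK030255 read −3.33, −0.60, −3.91 and −3.84 on wild-type replicates 1 to 4 and −3.91, −3.83, −4.16 and −3.64 in Ts1Cje. AK016840 read −3.97, −0.72, −4.35 and −4.48 in wild type and −4.31, −4.04, −4.58 and −4.02 in Ts1Cje. Wild-type replicate 2 stood apart in both, and the other arrays overlapped; the log2 differences were −0.96 (SE 0.68) and −0.86 (SE 0.78). These 2 were singled out after their values were seen.

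AK probes as a class were tilted towards higher values in Ts1Cje, by an amount not separated from the spread between arrays. The median log2 difference was 0.06 for AK, −0.01 for BC, −0.02 for RefSeq and 0.04 for genome intervals, beside −0.0063 over all probes. Above 0 lay 900 AK probes (66.8%) and 80 BC probes (44.9%), against 47.7% of all probes. The genotypes did not overlap, with Ts1Cje higher, for 42 AK probes (3.12%), beside 2.41% of all probes, and with Ts1Cje lower for 23 (1.71%), beside 3.59%. The BC class held 5 of each (2.81%). These counts include the 57 AK probes that entered the fit through the Ts1Cje arrays only and the 21 through the wild-type arrays only. In a fit of probes detected on all 8 arrays, the AK median was 0.0613, beside −0.0079 over all probes of that fit.

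Per array, the mean of the fitted AK probes was −1.58, −1.51, −1.70 and −1.51 on wild-type replicates 1 to 4 and −1.60, −1.45, −1.45 and −1.50 on Ts1Cje replicates 1 to 4. Wild-type replicate 3 was the lowest, and the genotypes overlapped because Ts1Cje replicate 1 lay among the wild-type arrays. The genotype means differed by 0.07 (−1.50 ± 0.07 and −1.58 ± 0.09, SD, n = 4; exact permutation p = 0.257, adjusted 0.36). The mean of the fitted BC probes was 0.52, 0.51, 0.43 and 0.55 in wild type and 0.51, 0.50, 0.49 and 0.50 in Ts1Cje, again with wild-type replicate 3 lowest, and differed by −0.0049 (exact permutation p = 0.886). The AK median log2 difference was 0.03 without wild-type replicate 3 and 0.01 with the array median as the centre. It was 0.02 between the arrays of slide row 1 and 0.12 between those of row 2. The median over all probes in these fits was −0.016, −0.057, −0.014 and −0.00057, in the same order. With the array median as the centre the AK median thus stood 0.071 above that of all probes, as in the fit reported.

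From array to array the AK mean followed the mean of the genome interval class closely. Over the 8 arrays the AK mean correlated with the interval mean at r = 0.961 (exact permutation p = 0.000893, adjusted 0.00223 over 5 pairs; Spearman's rho = 0.905, p = 0.00456). Without wild-type replicate 3 and Ts1Cje replicate 1, the arrays farthest from the median, r was 0.887. The correlation with the Ensembl class was r = 0.966 (exact permutation p = 2.5e-05, adjusted 0.000124; rho = 1.0, p = 5.0e-05), and 0.934 without those arrays. The correlations were r = 0.478 with BC (exact permutation p = 0.228; rho = −0.10, p = 0.840), r = −0.557 with RefSeq (exact permutation p = 0.149; rho = −0.69, p = 0.0694) and r = 0.677 with the remaining probes (exact permutation p = 0.0679; rho = 0.19, p = 0.665). Leaving out the same arrays gave −0.626, −0.963 and −0.469. These points share the scaling of each array, and a slide row holds too few arrays for a value of its own. With the array median as the centre, r was 0.863 with the interval class, 0.424 with Ensembl, −0.644 with BC, −0.659 with RefSeq and −0.478 with the remaining probes. The correlation with RefSeq ran from −0.939 with quantile normalisation to 0.144 without a filter on dim probes, so its sign depended on the processing, while r with the interval class was 0.863 or higher in the 5 alternatives tried. The difference between these correlations was not tested.

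Single AK probes were more spread between arrays than BC or RefSeq probes. The median residual SD of a fitted probe was 0.189 log2 units for AK, 0.117 for BC, 0.108 for RefSeq and 0.193 for genome intervals. When each class was instead centred on its own mean on every array, an alternative added after the data were seen, the medians were 0.171 for AK, 0.121 for BC, 0.109 for RefSeq and 0.179 for genome intervals. That centring sets the AK genotype difference near 0 by its construction, so nothing is read from the direction of AK probes in it. The cause of the wider AK spread was not tested.

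The classes also differed in how their fitted probes were placed along the signal scale. Of these probes, 29.2% of AK, 20.8% of BC and 13.5% of RefSeq lay below a signal of −3, and 7.49%, 35.4% and 28.3% lay above 2. Below −3 the median residual SD was alike in the classes, at 0.251 for AK, 0.263 for BC and 0.248 for RefSeq. Between −1 and 0 it was 0.169 for the 179 AK probes, 0.209 for the 12 BC probes and 0.115 for RefSeq. Between 0 and 1 it was 0.144 for AK, 0.146 for BC and 0.0967 for RefSeq, and above 2 it was 0.113 for the 101 AK probes, 0.077 for the 63 BC probes and 0.072 for RefSeq. The AK value was thus above the RefSeq value in these brighter bands and close to it among dim probes, while the few BC probes from −1 to 1 were as spread as AK or more. These differences were not tested. The AK median log2 difference was 0.10 between −1 and 0 and 0.01 above 2, and that of RefSeq −0.02 in both.

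Only 12 clone probes, all BC, carried an accession that the reference table (GRCm38.p6) lists as a gene's symbol or synonym, 7 for protein-coding and 5 for long non-coding RNA genes. The other 2769 were unmatched, so how many lie in the triplicated or the deleted segment was not analysed here. None of the 12 was on chromosome 16, and BC042761 was on chromosome 12; whether it lies in the deleted tip was not analysed here. Of the 12, 6 were fitted and 5 were detected on no array.

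Where a matched gene also had a RefSeq probe in the fit, the differences could be set side by side. BC017131 belongs to Cdk10, a cyclin-dependent kinase gene on chromosome 8, and read 3.44, 3.52, 3.38 and 3.53 in Ts1Cje and 3.35, 3.37, 3.21 and 3.47 in wild type. The arrays overlapped, with a log2 difference of 0.12 (SE 0.07), and the RefSeq probe gave 0.07 (SE 0.04). BC049953, for the zinc finger gene Zc3h3 on chromosome 15, gave 0.16 (SE 0.08), and its RefSeq probe gave 0.18 (SE 0.09). BC042569, for the zinc finger gene Zkscan7 on chromosome 9, gave 0.05 (SE 0.21) and its RefSeq probe 0.01 (SE 0.10). In all 3 pairs the clone probe and the RefSeq probe differed by less than the standard error of the clone probe. None of these probes passed the threshold, and the median size of the log2 difference over all fitted probes was only 0.079. No comparison with unrelated probes was made for these pairs.

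Other matched probes did not pass the threshold or did not enter the fit. The long non-coding BC040756 on chromosome 17 was detected on all 8 arrays at −0.60 with a difference of 0.02 (SE 0.07), and the long non-coding BC051408 was detected on 7 with a difference of 0.16 (SE 0.24). The probes for Samd11, for Dnah3, an axonemal dynein heavy chain of motile cilia, and for the long non-coding BC006965, BC042761 and BC051537 were not well above background on any array. The probe for BC037156 was detected on a single Ts1Cje array. A RefSeq probe for BC006965 was in the fit, with a log2 difference of −0.66 (SE 0.54).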

How the data were processed

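Total RNA (0.1 µg) was labelled with Cy3 and read on 8 one-colour Agilent arrays, per the labels' protocols. The deposited intensity values come from Agilent Feature Extraction 10.10.1.1, per the file headers, and are linear processed signals, background-subtracted by that software, with the design's mm9 coordinates. The authors' further processing is not given in the sources used here.

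From these, spots flagged as outliers and control spots were left out, spots of a probe were averaged as log2, and each array's 75th percentile over 55681 probes was subtracted. Genotypes were compared with limma 3.58.1 (R 4.3.3; lmFit and eBayes, no covariate) on 32596 probes, with Benjamini-Hochberg adjustment at 0.05. Means and shares per array were compared by two-sided exact permutation (Python 3.11.15). p-values measure the spread between samples labelled as replicates. Row 1 of the slide held replicates 1 and 2 of both genotypes and row 2 the others. Wild type lay in columns 1 and 3 and Ts1Cje in columns 2 and 4, so column and genotype cannot be told apart. On simulated data for this comparison (32596 probes, 200 changed), 56% of 1.5-fold and 78% of 2-fold changes were recovered. There were 8 false calls among 142 calls, and 0 calls with no change simulated. The simulated noise was independent for each probe and array, so shifts shared by many probes of an array were not part of it.

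Probes named in the text are those past the threshold, the 5 of smallest p in each class and direction among probes detected on all 8 arrays whose genotypes did not overlap, and the 3 brightest of each class. AK015935, AK135803, AK039538, AK030255, AK016840 and the clones with several probes or spots were added after their values were seen. Rules that needed a gene name could not be applied, as the columns used hold accessions only; the 12 matches come from the reference table, and 1 of them is not reported here. The marker genes checked were those of principal neurons, interneurons, astrocytes, oligodendrocytes, microglia, endothelium, choroid plexus, ependyma, neighbouring regions, neocortex and blood. Probes and lists were chosen with earlier results of these data known. Alternatives covered background correction, scaling, the filter on dim probes, 1 probe per gene, array weights, the prior, slide row, replicate number and each array left out.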

Additional observations from a re-analysis of the deposited data

Results flagged for a closer look

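Of 66 sets of 4 arrays examined for a single array standing apart from the rest of its genotype, 3 were picked out, where chance alone gives about 1 in 20, or 3.3. The share of AK probes detected on wild-type replicate 3 was 58.2%, and the other wild-type arrays lay from 55.99% to 56.11%. The probe for AK020212 read −1.78 on Ts1Cje replicate 1, and the other Ts1Cje arrays lay from −1.51 to −1.48, so the array standing apart was the one farthest from wild type. The probe for BC082568 read −1.54 on wild-type replicate 3, and the other wild-type arrays lay from −1.68 to −1.66, so that array was the closest to Ts1Cje.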

How the results depend on the processing

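The number of AK probes past the threshold, 1 as reported, was 0 without a filter on dim probes and 4 with array weights. It was 4 at an adjusted p under 0.1, 2 with each class centred on its own array mean and 0 within either slide row. As each array was left out it ranged from 0 to 2. With the slide row as a block, the AK probe past the threshold was AK015935 and not AK162627. Without wild-type replicate 3, AK162627 was not among the AK probes past it. The number of BC probes, also 1, was 0 without the filter and 0 within either slide row, and ranged from 0 to 1 as each array was left out. With the replicate block, which treats same-numbered arrays as paired, the counts were 0 and 0, and 1 over all probes against 61. Same-numbered arrays deviated together with correlations of 0.22, 0.19, 0.11 and 0.07, and each Ts1Cje array correlated best with the wild-type array of its own number. Same-numbered arrays also lay side by side in a slide row, so a shared litter and a shared position cannot be told apart. The labels do not tie a number to a litter. Over all probes, 3 were past the threshold without the filter, 32 with the array median as the centre, 102 with array weights and 1 to 51 as each array was left out.

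The BC median was −0.0629 with the array median as the centre, which took the median of all probes to −0.0567. The difference between genotypes in the BC mean was −0.055 there (exact permutation p = 0.0286), 0.0102 without the filter, and from −0.0291 (without wild-type replicate 3, exact permutation p = 0.0286) to 0.0090 (without wild-type replicate 4) as each array was left out. The difference in the AK mean stayed above 0 in its 14 alternatives, of which the replicate block cannot move it, and passed in none. The AK median exceeded the BC median in 20 of 21 alternatives, the exception being each class centred on its own mean. That exception was set by its construction. The gap between these medians cannot move with the array median as the centre, another prior or either block. It was 0.077 in each of those, as in the fit reported. The AK minus BC differences in share detected (−8.77 to −3.23 points, the latter with the positive and significant flag) and in median signal (−2.39 to −1.05, the latter over all probes of each class) stayed below 0 in their 11 alternatives. Of 441 values for the 21 named probes other than the brightest, 416 stayed on the same side of the threshold. Of the others, 21 lost it and 4 gained it, and 0 changed sign. Where only the filter on dim probes, the choice of 1 probe per gene, the prior or a block changed, the log2 difference stayed identical. Within a slide row or with arrays left out or weighted, the sign could not change, as the genotypes of these probes did not overlap. The absence of sign changes in those alternatives was therefore fixed in advance. The losses were all of the called probes, in 8 of 21 alternatives for BC056174 and 13 of 21 for AK162627. The other named probes were not past the threshold as reported, so they had no call to lose. The causes were not tested. Median residual SDs were widest below a signal of −3, at 0.251 for AK, and recovery in simulated data was not split by class or level.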
